A study of Mus musculus with 5 samples.

Results

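Knockdown of Trim28 was compared with hairpins against Wtx in ES-D3, an established line of mouse embryonic stem cells, through the RNA of genes and of repeat elements. Each target had 2 libraries, replicates 1 and 2, each with a hairpin of its own (shTrim28 and shWtx), which makes 4 of the 5 libraries. The other, with a control hairpin against GFP (shGFP), had no part in the differences, and its values are given beside them. Gene rows and repeat rows entered with a mean of at least 20 estimated counts over the 5 libraries, which left 6079 of 28642 gene rows and 682 of 1221 repeat rows. Both tables were scaled by the TMM size factors of the gene table. A row was called where edgeR's quasi-likelihood test gave an adjusted p under 0.05 and both hairpins of 1 target lay beyond both of the other.

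All 5 cultures grew with leukemia inhibitory factor on γ-irradiated feeder cells, were infected with a lentivirus carrying the short hairpin, and were selected with puromycin. Feeder cells were reduced by a replating step before RNA was taken, and the RNA was read on the Helicos instrument, which reads single molecules without amplification. Each hairpin was represented by 1 library, so p-values rest on the spread between hairpins of a target, part of which may be technical. edgeR shared that spread across rows. For genes in the main fit it was shared in part. For repeats scaled by the gene table the spread of the whole table replaced that of each element. Repeats scaled by their own table or by DNA transposons shared it in part, so calls under these scalings differ through the spread too. Leaving out a library leaves 1 target with a single library. The spread then comes from the other target's pair alone, so counts without a library differ through it too. In bulk RNA, fewer cells of a type and less RNA of that type per cell cannot be told apart.

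Trim28 (KAP1) is a scaffold protein without DNA binding of its own. KRAB zinc finger proteins bring it to endogenous retroviruses and imprinted control regions, where it gathers the histone methyltransferase Setdb1, HP1 proteins and DNA methyltransferases into a silencing complex. In embryonic stem cells it is known for holding retroviral repeats silent and for supporting self-renewal. Wtx (Amer1, listed in the gene table as Fam123b) is a membrane-associated scaffold of the complex that degrades β-catenin in the Wnt pathway, and the study's title concerns its interaction with Trim28.

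The 4 hairpin targets are shown first because they set what each pair of libraries can stand for. Each was read from the sample labels and found in the coding sequence of 1 gene on GRCm38. The capitals mark the 20 of 21 bases that the Wtx hairpins share.
shTrim28 replicate 1: ccaccagtcttcaaggtcttt
shTrim28 replicate 2: ccgcatgttcaaacagttcaa
shWtx replicate 1: gCCAGACATGCAAGAAGCAAA
shWtx replicate 2: CCAGACATGCAAGAAGCAAAt
The Trim28 hairpins lie in exons 12 and 16 of the 17 exons of the gene, at chr7:13029440-13029460 and chr7:13030559-13030579 on the plus strand. The Wtx hairpins lie in the last of 2 exons of Amer1 at chrX:95426292-95426312 and chrX:95426291-95426311 on the minus strand. The Trim28 pair therefore tests 2 separate sites, while the Wtx pair tests a single site at positions 1 base apart.

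Trim28 was 8.70-fold lower in the shTrim28 libraries than in those labelled shWtx. In counts per 1000000 (CPM) of the scaled gene total it stood at 61.0 (exact 95% Poisson interval 36.2 to 96.5, counting error only) and 42.5 (34.0 to 52.5) in shTrim28 replicates 1 and 2. The libraries labelled shWtx had 425 (377 to 477) and 398 (336 to 469), and the control had 716 (651 to 787). The groups did not overlap, and the log2 difference was −3.12 (SE 0.23, adjusted p = 0.000178). For Fam123b the counts were 5 and 54 in shTrim28, 19 and 6 in the libraries with its hairpins and 8 in the control, or 17.0, 26.7, 27.9, 16.6 and 13.1 CPM in that order. Its mean of 18.6 counts was below the limit for testing, and its levels in the pairs overlapped. Since these values show no lower Fam123b under its own hairpins, the libraries are called by their label, shWtx.

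The depth was uneven. Gene totals were 280614 and 1901563 estimated counts in shTrim28 replicates 1 and 2, 763130 and 377794 in the libraries labelled shWtx, and 586408 in the control, so the mean that admits a row leans on shTrim28 replicate 2. Chemoreceptor genes, which are silent in most cells outside the senses, took 2318 and 1520 CPM of the gene total in shTrim28, 4468 and 3843 in the libraries labelled shWtx and 339 in the control. Repeat counts outside ribosomal RNA per gene count were 0.743 and 0.533, 1.14 and 1.02, and 0.419 in the same order.

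**Figure D1:**
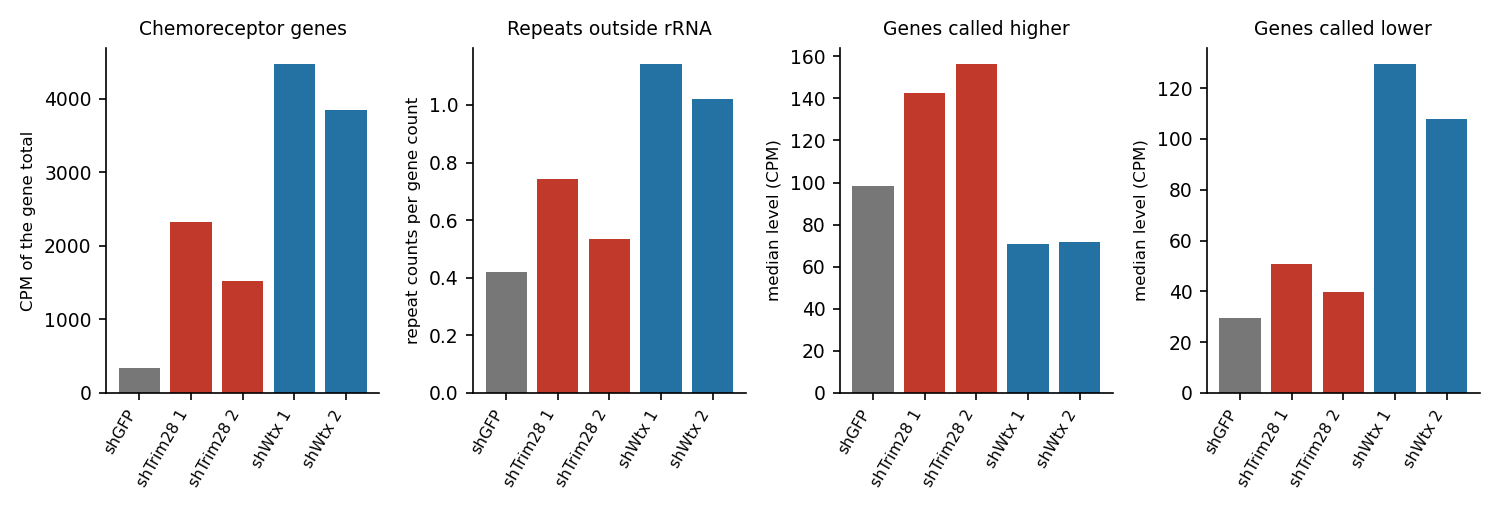
Bars give, for each library, the CPM of chemoreceptor genes within the gene total, repeat counts outside ribosomal RNA per gene count, and the median CPM of the gene rows called higher and called lower in shTrim28 (1 value per library, no error bars). Chemoreceptors, repeats and the rows called lower are highest in both libraries labelled shWtx and lowest in the control. For the rows called higher, the control lies between both pairs.

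Of the 6079 gene rows, 249 (4.1%) were called higher and 759 (12.5%) lower in shTrim28 than in the libraries labelled shWtx, together 16.6%. Both hairpins lay beyond both of the other target in 27.7% of rows on the higher side and 28.8% on the lower side, together 56.5%, whatever the p. The median log2 difference over all rows was 0.00. Among the higher rows 149 of 249 differed by more than 2-fold, and 12 by more than 4-fold. Among the lower rows these numbers were 673 of 759 and 103. The count changed when a library was left out, and so did the spread behind it. As a coefficient of variation shared by the rows, this spread was 0.155 with all libraries. It was 0.124 and 0.125 without shTrim28 replicates 1 and 2, where it replaced the spread of each gene. Without the libraries labelled shWtx replicates 1 and 2 it was 0.178 and 0.177. DESeq2's Wald test called 75 higher and 348 lower, and with every row that had a count TMM moved the median of the same 6079 rows to 0.45, with 377 higher and 513 lower among all rows then tested.

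**Figure D2:**
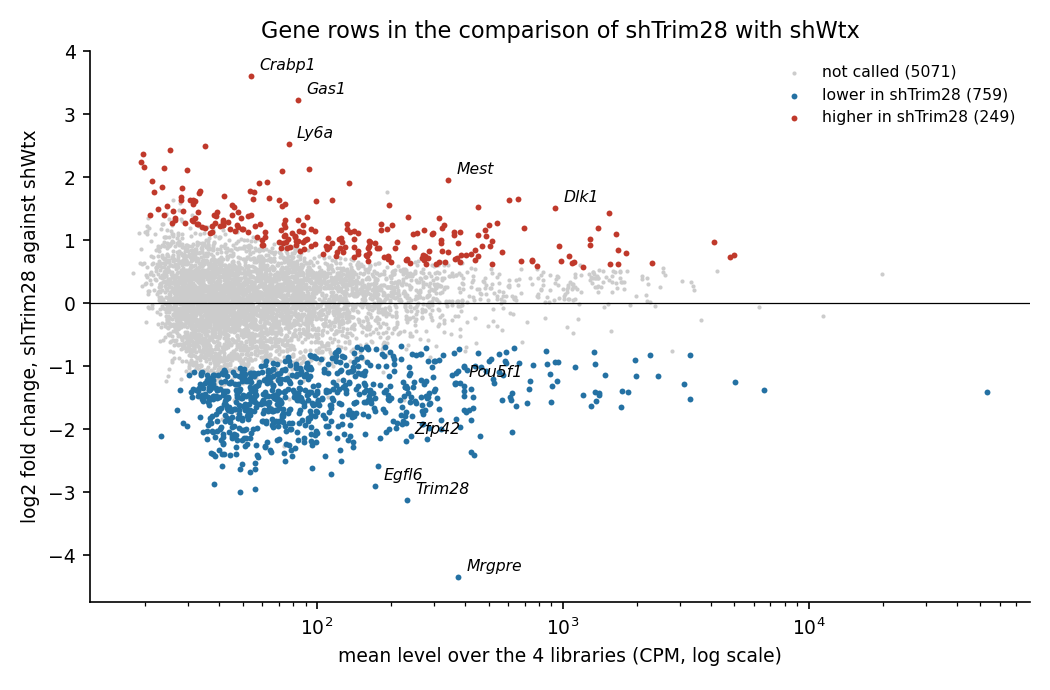
Each point is a gene row, with its mean CPM over the 4 libraries on a log axis and the log2 difference of shTrim28 from shWtx on the vertical axis. The 249 rows called higher are red, the 759 called lower are blue, and the 5071 not called are grey. Mrgpre and Trim28 lie lowest among the symbols marked and Crabp1 highest.

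The 5 genes that mark the comparison behaved as follows. Gas1, a membrane protein that slows entry into S phase and binds Hedgehog ligands, stood at 109 and 194 CPM in shTrim28, at 20.6 and 11.1 in the libraries labelled shWtx and at 75.4 in the control, and was 9.39-fold higher (log2 3.23, SE 0.39, adjusted p = 0.0012). Ly6a (Sca-1), a surface antigen of mouse stromal and progenitor cells, stood at 109 and 154, 27.9 and 16.6, and 57.4, and was 5.78-fold higher (log2 2.53, SE 0.33). Mest, an imprinted hydrolase gene of mesoderm, stood at 400.2 and 685, 143 and 144, and 225, and was 3.89-fold higher (log2 1.96, SE 0.26). For each of these genes the control lay between the pairs. In the libraries labelled shWtx the counts were low for Gas1 (14 and 4) and Ly6a (19 and 6).

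Dlk1, an imprinted ligand of the Notch family that holds progenitors undifferentiated, stood at 1458 and 1301 CPM in shTrim28, 528 and 432 in the libraries labelled shWtx and 969 in the control, and was 2.85-fold higher (log2 1.51, SE 0.18, adjusted p = 0.0012). Mrgpre, an orphan G-protein-coupled receptor gene of sensory neurons, went the other way. It stood at 61.0 and 26.7 CPM in shTrim28, at 741 and 675 in the libraries labelled shWtx and at 8.19 in the control, and was 20.4-fold lower under shTrim28 (log2 −4.35, SE 0.31, adjusted p = 0.000178). All of these 5 genes passed under every alternative run, with Gas1 between 2.71 and 3.83 and Mrgpre between −4.70 and −3.47 on the log2 scale.

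**Figure D3:**
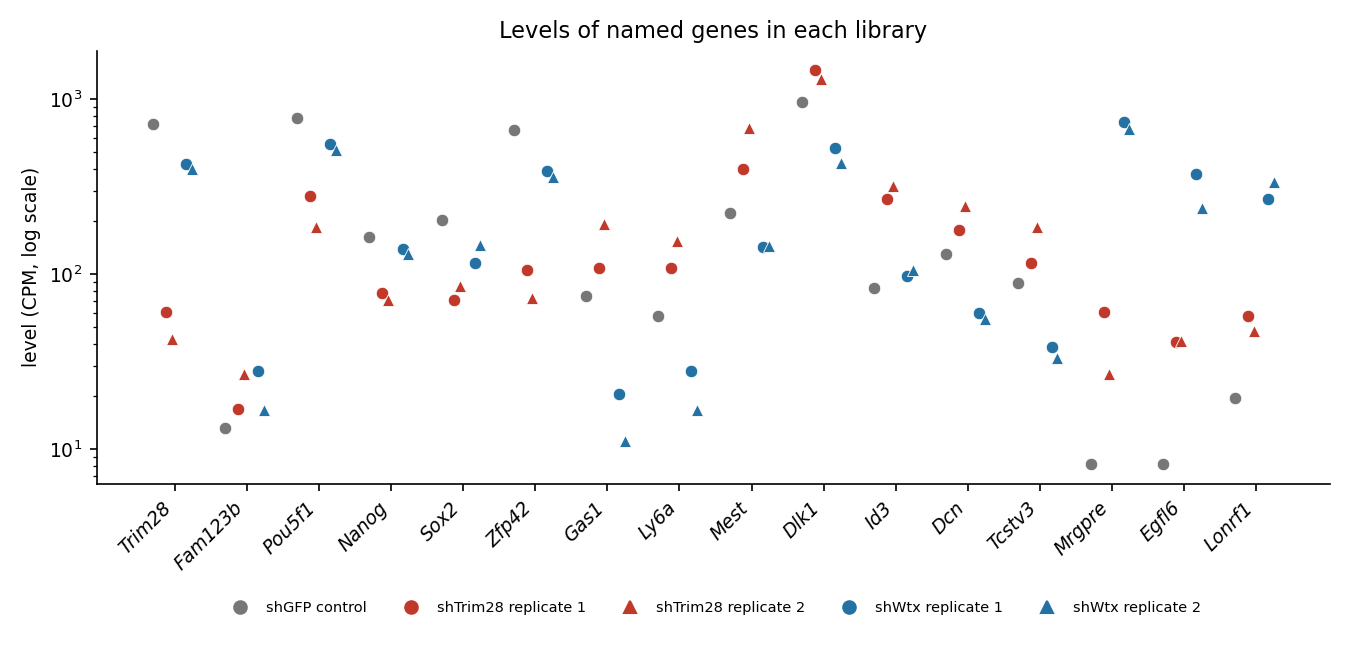
Points give the CPM of named genes in each of the 5 libraries on a log axis, grey for the control, red for shTrim28 and blue for shWtx, with circles for replicate 1 and triangles for replicate 2. Trim28, Pou5f1, Nanog and Zfp42 are lowest in both shTrim28 libraries. Gas1, Ly6a, Mest and Dlk1 are highest there, and Mrgpre, Egfl6 and Lonrf1 stand highest in both shWtx libraries.

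Counts of gene lists below are over members deep enough to test. This leaves out members with a mean under 20 estimated counts, a mean that leans on shTrim28 replicate 2. A gene with few counts elsewhere can reach it through that library alone, where it is high. Counts of higher members among such genes are no separate result. Of 188 rows with a known transcript and a mean under 25 CPM over the 4 libraries, 11 were higher and 1 lower (median 0.42). Over all rows tested, 4.1% were called higher and 12.5% lower. Pou5f1, Nanog, Sox2 and Zfp42, which define the labelled cell type, were present in all 5 libraries. Part of the genes of the pluripotent state were lower in shTrim28. Of 31 tested among 40 listed, 13 fell relative to the libraries labelled shWtx, 2 were higher and 16 were not called, with a median of −0.68 beside 0.00 over all rows. Zfp42 (Rex1), a zinc finger gene of naive stem cells, stood at 105 and 72.7 CPM in shTrim28, at 387 and 360 in the libraries labelled shWtx and at 667 in the control (log2 −2.18, SE 0.22, adjusted p = 0.000922). Pou5f1 (Oct4), a core factor of pluripotency, stood at 278 and 187, 556 and 509, and 783 (log2 −1.26, SE 0.22, adjusted p = 0.00368). The chromatin factor Utf1 (−1.68), the Oct4-dependent F-box gene Fbxo15 (−1.53), the nuclear receptor Esrrb (−1.55), the T-box factor Tbx3 (−1.41) and the adhesion molecule Jam2 (−2.32) were also lower.

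Nanog passed more narrowly, at 78.0 and 71.2 CPM against 138 and 130 and 164 in the control (log2 −0.88, SE 0.23, adjusted p = 0.0238). Sox2, its partner at many enhancers, did not pass, at 71.2 and 85.5 CPM against 116 and 147 and 205 in the control (−0.68, adjusted p = 0.0825). The pair that rose was Stat3, the transducer of the leukemia inhibitory factor signal (1.01, adjusted p = 0.0428), and the secreted phosphoprotein Spp1 (0.75, adjusted p = 0.0455). The sum of the list was 4168 and 4658 CPM in shTrim28, 6125 and 6438 in the libraries labelled shWtx and 11160 in the control. With every row that had a count, 2 of the genes were lower and Nanog (−0.43) and Pou5f1 (−0.85, adjusted p = 0.159) did not pass, while the median of the 6079 rows was then 0.45. Leaving out a library gave between 9 and 14 lower, and Nanog did not pass without shTrim28 replicate 2 or without either library labelled shWtx.

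Fibroblast genes went the opposite way: 15 of 29 tested (38 listed) rose in shTrim28, none fell, and their median was 0.97. Dcn (decorin), a matrix proteoglycan, stood at 180 and 246 CPM in shTrim28, 60.3 and 55.3 in the libraries labelled shWtx and 129 in the control (log2 1.91, SE 0.25, adjusted p = 0.00162). Timp2, an inhibitor of matrix metalloproteinases, stood at 1017 and 920.3, 418 and 421, and 444 (log2 1.20, SE 0.17). Cald1, an actin-binding regulator of contraction (1.28), S100a4, a calcium-binding protein of motile cells (1.53), the collagen chains Col1a2 (1.25) and Col3a1 (1.79), the surface glycoprotein Thy1 (1.65) and the intermediate filament Vim (0.92) also rose. Without the library labelled shWtx replicate 1 the count was 8 of 29.

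The fibroblast list as a whole summed to 7654 and 7960 CPM in shTrim28, 3945 and 4161 in the libraries labelled shWtx and 3615 in the control. A shorter list of 10 markers of embryonic fibroblasts, the kind used as feeder cells, summed to 1397 and 1612, 909 and 941, and 752 CPM. Of its members 7 were tested and 4 were higher, and Lum was at 0 in shTrim28 replicate 1, in the library labelled shWtx replicate 2 and in the control. Over the same libraries, 8 embryonic stem cell markers summed to 1411 and 1290, 2740 and 2855, and 4932 CPM, and 6 of them were lower. The part of remaining feeder cells in the rise of the fibroblast genes was not tested.

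Matrix, contractile and lineage lists had few called genes. Of 14 genes of basement membrane and matrix enzymes 4 rose (median 0.55), namely the syndecan Sdc2 (1.38), the membrane metalloproteinase Mmp14 (0.96), the integrin chain Itgb1 (0.74) and the hyaluronan receptor Cd44 (0.69). Cd44 also stands on the Wnt target list, and without the library labelled shWtx replicate 1 the count was 1. Of 10 contractile genes Tpm1, a tropomyosin, rose (1.13), which is 10% beside 4.1% over all rows. Of 4 trophoblast and keratin genes tested 3 rose (median 1.35), and 1 without the library labelled shWtx replicate 1. Krt8, a keratin of simple epithelia, stood at 40.7 and 43.0 CPM in shTrim28 against 5.88 and 11.1 and 9.83 in the control. Its log2 difference of 2.43 (SE 0.43) came from 12 and 87 counts in shTrim28 and 4 in each library labelled shWtx. Krt8 and Id2 reached the required mean through shTrim28 replicate 2 (87 and 209 counts), so the count of 3 is no separate result. Prl2c2 (proliferin), whose reads could come from near-identical copies, stood at 2201 and 2371 against 1282 and 1358 and 954 (0.79). Cdx2, Eomes, Krt8, Krt18, Elf5 and Gata3 together summed to 132 and 130 CPM in shTrim28, to 83.8 and 113 in the libraries labelled shWtx and to 27.9 in the control.

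Of 6 mesendoderm genes 2 rose, the homeobox gene Hoxb1 (2.12, SE 0.39) and the growth factor receptor Pdgfra (0.97, SE 0.28). Hoxb1 reached the required mean through 106 counts in shTrim28 replicate 2, beside 13 in replicate 1 and 9 and 3 in the libraries labelled shWtx. Of 4 neuroectoderm genes none rose and the adhesion molecule Ncam1 was lower (−1.05). Of 5 genes of the primed epiblast the de novo DNA methyltransferases Dnmt3a (−1.04) and Dnmt3b (−1.22) were lower, and no member was higher. Without shTrim28 replicate 2 or either library labelled shWtx, 1 mesendoderm gene and no neuroectoderm gene was called, and without the library labelled shWtx replicate 1 neither Tpm1 nor a primed epiblast gene passed.

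A list of Hedgehog, retinoid and growth arrest genes, drawn up around Gas1 and Dlk1 with their values known, had 8 of 13 tested (24 listed) higher and none lower, with a median of 1.40. Crabp1, which binds retinoic acid in the cytoplasm, stood at 54.3 and 140 CPM in shTrim28, at 4.41 and 16.6 in the libraries labelled shWtx and at 41.0 in the control, the largest difference on the higher side among rows with a symbol (12.2-fold, log2 3.61, SE 0.59, adjusted p = 0.003). The Crabp1 counts were low, at 3 and 6 in the libraries labelled shWtx and 16 in shTrim28 replicate 1, beside 284 in replicate 2. Grem1, a secreted inhibitor of bone morphogenetic proteins, rose by 1.18 (SE 0.31). Without shTrim28 replicate 2, or without the library labelled shWtx replicate 1, 5 of the 13 were called.

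The Id genes, which encode inhibitors of basic helix-loop-helix factors and are known targets of bone morphogenetic protein signals, moved together. Id3 stood at 268 and 318 CPM in shTrim28, at 97.1 and 105 in the libraries labelled shWtx and at 83.6 in the control (log2 1.56, SE 0.21, adjusted p = 0.00167). Id2 rose by 1.91 (SE 0.34) and Id1 by 0.97 (SE 0.27). For Id1, Id2 and Id3 both shTrim28 libraries were above the control. The libraries labelled shWtx lay above the control for Id1 and Id3, and on either side of it for Id2.

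Of 23 imprinted genes tested (42 listed) 7 rose, none fell, and the median was 0.33. Besides Dlk1 and Mest they were the growth factor Igf2 (1.65, SE 0.41), the zinc finger gene Plagl1 (1.30, SE 0.38), the G-protein subunit Gnas (0.82, SE 0.17), the tetraspanin Cd81 (0.67, SE 0.20) and Dcn, which also stands on the fibroblast list. Igf2 stood at 47.5 and 46.0 CPM in shTrim28, 10.3 and 22.1 in the libraries labelled shWtx and 8.19 in the control. Usp29, a ubiquitin protease of the Peg3 domain, missed the threshold in the other direction, at 2581 and 1606 against 3416 and 3575 and 4161 in the control (−0.75, adjusted p = 0.0513), and Peg3 itself had 0.94 (adjusted p = 0.102). The fibroblast and stem cell marker sums given above moved in the same libraries, and their part in the rise of the imprinted genes and of the lists above with higher genes was not tested. Without shTrim28 replicate 2 or the library labelled shWtx replicate 2 the count was 4, and without the library labelled shWtx replicate 1 it was 3.

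Zfp57 is the KRAB zinc finger protein that recruits Trim28 to imprinted control regions by binding a methylated TGCCGC. The promoter of Mest is shown because Mest had the largest difference among the imprinted genes and Zfp57 itself differed. RefSeq gives 3 start windows for Mest on GRCm38.p6, and the window at chr6:30737800-30738049 on the plus strand, the 250 bases before a start, holds 2 copies of the reverse complement GCGGCA, in capitals, and 14 CG dinucleotides.
Mest promoter: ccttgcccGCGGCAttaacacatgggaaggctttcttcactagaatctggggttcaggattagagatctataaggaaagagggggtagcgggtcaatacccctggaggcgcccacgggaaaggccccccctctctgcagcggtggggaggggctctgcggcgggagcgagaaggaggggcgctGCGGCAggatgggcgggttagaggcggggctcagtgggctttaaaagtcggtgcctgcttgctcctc
Searched on both strands, TGCCGC occurred in 11.6% of 32851 RefSeq promoter windows that also take in bases after the start, and in 12 of 49 such windows (24.5%) of the listed imprinted genes. A second start of Mest overlaps this window almost fully, and the window at chr6:30733256-30733505 held no copy. These counts describe letters in a window and were not set against the RNA.

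The silencing machinery around Trim28 had 5 of 29 genes tested (36 listed) lower, none higher and a median of −0.02. The hairpin target itself was one of them. The others were Dnmt3a, Dnmt3b, the 5-methylcytosine oxidase Tet2 (30.5 and 28.19 CPM in shTrim28, 94.1 and 91.3 in the libraries labelled shWtx, 52.4 in the control, log2 −1.69, SE 0.28) and Zfp57 (61.0 and 34.6, 89.7 and 91.3, and 116, log2 −1.12, SE 0.31, adjusted p = 0.0332). Dnmt3a stood at 57.7 and 77.6, 154 and 138, and 257 CPM. For Dnmt3a, Dnmt3b and Zfp57 the control was the highest of the 5 libraries, whereas for Tet2 it lay between the pairs. The count was 3 without shTrim28 replicate 2 and 2 without the library labelled shWtx replicate 1, and with every row that had a count only 1 gene was lower. The share called lower, 17.2% with Trim28 itself included, is near the 12.5% over all rows and is no result about the list.

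Zinc finger genes named Zfp, many of which encode KRAB proteins that partner with Trim28, had 72 members tested (299 in the table). Of these 20 were lower (27.8%, beside 12.5% over all rows) and none higher, with a median of −0.37. Zfp353 stood at 844 and 570.2 CPM in shTrim28, at 2244 and 1798 in the libraries labelled shWtx and at 68.8 in the control (log2 −1.54, SE 0.22, adjusted p = 0.00206). Zfp473 stood at 64.4 and 64.3, 237 and 174, and 29.5 (−1.69). Zfp92 stood at 23.7 and 10.4, 80.9 and 80.2, and 6.56 (−2.62). For these 3 genes the control was below all 4 other libraries, in the order seen for chemoreceptor counts, while for Zfp42, also on the list, the control was the highest. Without shTrim28 replicate 2 there were 13 lower and without the library labelled shWtx replicate 1 there were 10, and with every row that had a count there were 10 lower and 1 higher. The list's median was then 0.07 where that of the 6079 rows was 0.45, so it stayed below the other rows.

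Genes of the 2-cell-like state, which a fraction of stem cells enters and Trim28 is known to limit, were divided. Tcstv3 stood at 115 and 186 CPM in shTrim28, at 38.2 and 33.2 in the libraries labelled shWtx and at 88.5 in the control (log2 2.13, SE 0.31, adjusted p = 0.00206). Tcstv1 stood at 98.3 and 67.7, 19.1 and 27.7, and 44.3 (1.79, SE 0.36), and did not pass without the library labelled shWtx replicate 1. Calcoco2, an autophagy receptor on the same list, was lower at 20.3 and 35.6 against 109 and 99.6 and 93.4 in the control (−1.71, SE 0.29). The remaining 4 of the 7 tested (19 listed) were not called. The control lay between the pairs for Tcstv3 and Tcstv1.

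Of 9 Wnt target genes tested (24 listed) 5 rose and none fell (median 0.69). They were Id2, the cyclins Ccnd1 (0.91, SE 0.19) and Ccnd2 (0.81, SE 0.18), the transcription factor Tcf4 (0.88, SE 0.20) and Cd44. Ccnd1 stood at 549 and 665 CPM in shTrim28, 291 and 365 in the libraries labelled shWtx and 477 in the control. The count was 1 without the library labelled shWtx replicate 1 and 2 without replicate 2. Of 15 tested genes of the Wnt degradation complex, to which Wtx belongs, none rose. Dvl3, a transducer of the Wnt receptor signal, was lower (−1.41, SE 0.35). That share, 6.67%, is below the 12.5% over all rows and is no result about the list. The median was 0.05, the other 14 were not called, and Dvl3 did not pass without shTrim28 replicate 2 or the library labelled shWtx replicate 1. Fam123b was not among those tested.

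Of 32 cell cycle genes 3 rose (9.38%, beside 4.1% over all rows) and 2 fell (6.25%, beside 12.5%), around a median of −0.03. The cyclin-dependent kinase inhibitor Cdkn1a (p21), also a p53 target, stood at 526 and 518 CPM in shTrim28 against 207 and 274 and 246 in the control (1.13, SE 0.20). The G1 cyclin Ccne1 (−0.84) and the replication licensing factor Cdc6 (−1.06) were lower. Leaving out a library moved these counts from 0 rising and 0 falling, without the library labelled shWtx replicate 1, to 5 and 5 without shTrim28 replicate 1, and without shTrim28 replicate 2 or the library labelled shWtx replicate 2 none fell. Of 16 p53 targets Cdkn1a and Ccng1 (0.82) rose and the death receptor Tnfrsf10b fell (−1.10), and none was called without the library labelled shWtx replicate 1.

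Of 21 Nrf2 targets, genes of the antioxidant response, 3 rose (14.3%, beside 4.1% over all rows) and 2 fell (9.52%, beside 12.5%). For the p53 targets above these shares were 12.5% higher and 6.25% lower. Ephx1, an epoxide hydrolase (2.10, SE 0.32), Gstp1, a glutathione transferase (1.12), and Fth1, the ferritin heavy chain (0.92), were higher. The cystine transporter Slc7a11 stood at 227 and 117 CPM in shTrim28 against 471 and 418 in the libraries labelled shWtx and 29.5 in the control (−1.50, SE 0.28), and catalase, Cat, was also lower (−1.34). Without shTrim28 replicate 1, 7 rose, and without the library labelled shWtx replicate 1, 1 rose.

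Of 6 genes of the Ly6 family and MHC class I tested 3 rose: Ly6a, the class I light chain B2m (661 and 753 CPM against 296 and 304 and 349 in the control, log2 1.25, SE 0.18) and Ly6e (1.04). Of 8 interferon response genes tested (30 listed) the membrane proteins Ifitm3 (1.12) and Ifitm2 (0.64) rose. The double-stranded RNA sensor Eif2ak2 (PKR) was lower, at 166 and 133 CPM against 519 and 338 in the libraries labelled shWtx and 42.6 in the control (−1.58, SE 0.24). The count of higher interferon genes was 4 without shTrim28 replicate 1, 1 without shTrim28 replicate 2 or without the library labelled shWtx replicate 2, and 0 without the library labelled shWtx replicate 1.

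Genes of oxidative phosphorylation and ribosomal proteins shifted by small amounts in the same direction. Of 76 oxidative phosphorylation genes 70 had a positive difference, 11 rose and none fell, with a median of 0.45. Cox6b1, a subunit of cytochrome c oxidase, stood at 380 and 442 CPM in shTrim28, 237 and 230 in the libraries labelled shWtx and 382 in the control (0.83, SE 0.18). The count was 26 without shTrim28 replicate 1, 2 without shTrim28 replicate 2, and 1 without either library labelled shWtx. Of 78 ribosomal protein genes 76 were positive, with a median of 0.36. Rpl14, Rpl19, Rps16 and Rps18 rose by 0.62 to 0.66 and Rps4y2 was lower (−0.69), and leaving out shTrim28 replicate 1 gave 33 higher, leaving out the control gave 5, and leaving out shTrim28 replicate 2 or either library labelled shWtx gave 0 in either direction. The shares called, 5.13% higher and 1.28% lower, stand beside 4.1% and 12.5% over all rows. Many of these genes have short transcripts, and over all rows with a transcript under 1000 bases the median was 0.41. The part of transcript length in both results was not tested.

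Of the remaining lists, glycolysis had 1 of 20 lower (5%, beside 12.5% over all rows), the pyruvate dehydrogenase kinase Pdk1 (−1.29). Unfolded protein stress had 1 of 15 higher (6.67%, beside 4.1%), the disulfide isomerase Pdia3 (0.70). Pdk1 did not pass without the library labelled shWtx replicate 2, and Pdia3 did not pass without shTrim28 replicate 2 or either library labelled shWtx. None of 19 genes of cholesterol synthesis and none of 19 histone genes was called.

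**Figure D4:**
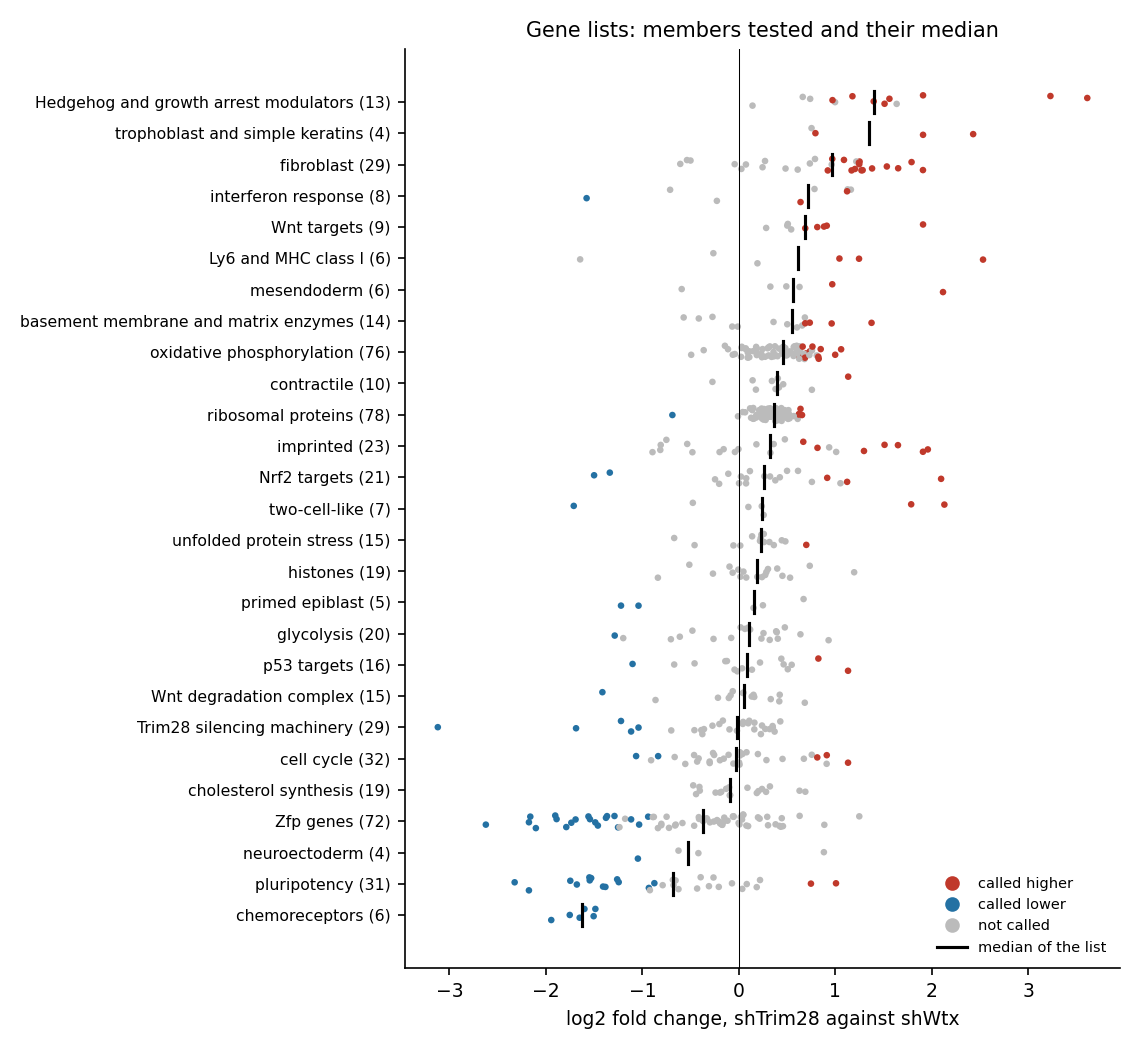
Each row is a gene list with the number of its members tested in brackets, and each point a member's log2 difference of shTrim28 from shWtx, red where called higher, blue where called lower and grey where not called. Vertical bars are the list medians. Pluripotency, Zfp and chemoreceptor genes lie lowest in median together with neuroectoderm, and the Hedgehog and growth arrest, trophoblast and fibroblast lists lie highest.

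The largest differences on the lower side after Mrgpre and Trim28 came from genes with no common role among the lists. Egfl6, a secreted matrix protein, stood at 40.7 and 41.5 CPM in shTrim28, at 372 and 238 in the libraries labelled shWtx and at 8.19 in the control (log2 −2.90, SE 0.28, adjusted p = 0.000892). The mannosidase gene Man1c1 stood at 37.3 and 27.7 in shTrim28, above the control (13.1) and below both shWtx libraries (−2.70). Lonrf1, a ring finger gene, stood at 57.7 and 47.0, 268 and 335, and 19.7 (−2.58). The same order, highest in the libraries labelled shWtx and lowest in the control, held for the glutamate receptor Grm5 (−2.63), the transporter Slco5a1 (−2.61) and the synaptic scaffold Bsn (−2.59).

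The channel-like gene Tmc7 (−2.95), the surfactant protein gene Sftpb (−2.86) and the sulfotransferase gene Chst2 (−2.68) completed the 12 symbols with Zfp92. On the higher side the 12 were Crabp1, Gas1, Ly6a, Krt8, Tcstv3, Hoxb1 and Ephx1, named above, and the acyl-CoA thioesterase Acot1 (2.50), AI413582 (2.37), the homeobox gene Hoxb2 (2.24), the matrix metalloproteinase Mmp3 (2.17) and the acyl-CoA synthetase Acsl3 (2.14). Acsl3 had no count in the library labelled shWtx replicate 2, and AI413582 and Hoxb2 had 1 each. Acsl3, AI413582, Hoxb1, Hoxb2 and Mmp3 did not pass without shTrim28 replicate 2, nor did Tmc7 and Bsn.

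Where the control stood differed between both sets of called rows. Of the 249 higher rows the control lay between the pairs in 128 (51.4%), at or beyond shTrim28 in 46 (18.5%) and at or beyond the libraries labelled shWtx in 75 (30.1%). Over all 6079 rows, each scored as if higher in shTrim28 whatever its own direction, these shares were 6.12%, 59.6% and 34.2%. A control between the pairs needs pairs that do not overlap, which the call requires and 27.7% of all rows have on the higher side. The shares over all rows are therefore no measure for the called rows. Of the 759 lower rows, scored in the other direction, the control lay at or beyond the shTrim28 side in 535 (70.5%). The share over all rows was not taken in that direction. The control lay below all 4 other libraries in 440 of the lower rows (58.0%), beside 27.3% of all rows. The median over the lower rows was 50.9 and 39.6 CPM in shTrim28, 129 and 108 in the libraries labelled shWtx and 29.5 in the control. Over the higher rows it was 142 and 156, 70.6 and 71.9, and 98.3.

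The lower rows also differed in what they were. Rows with a UCSC identifier and no gene symbol made up 185 of the 759 (24.4%), 12 of the 249 higher rows (4.82%) and 6.45% of all rows tested. Among rows with a GENCODE transcript on GRCm38 the median length was 4115 bases for the lower, 2215 for the higher and 3207 for all. A run of at least 12 CA or TG dinucleotides occurred in 14.5%, 5.91% and 6.19% of them in that order. Over all such rows the median log2 difference went from 0.41 under 1000 bases to 0.02 from 2000 to 4000 and −0.36 above 8000.

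Of 1337 chemoreceptor rows 6 were deep enough to test, and all 6 were lower in shTrim28, with a median of −1.63. Such rows reach the required mean only through libraries where their counts are high, so this count is no separate result. Olfr614, an olfactory receptor gene, stood at 129 and 94.9 CPM in shTrim28, 382 and 279 in the libraries labelled shWtx and 9.83 in the control (−1.65, SE 0.24, adjusted p = 0.00217). The mean chemoreceptor level, taken in proportion to transcript length, was subtracted from each of 5639 rows that had a length. This left 231 higher (4.1%) and 557 lower (9.88%) of rows that without subtraction had 233 and 612, and 760 of the 788 calls were also among the 1008. Mrgpre then had −4.48, Trim28 −3.22, Egfl6 −3.00 and Zfp42 −2.24. The level subtracted was small per kilobase of transcript: 0.48 and 0.31 CPM in shTrim28, 1.09 and 0.87 in the libraries labelled shWtx. The control had 0.07. Over the lower rows of the main fit, the libraries labelled shWtx had medians of 129 and 108 CPM. All 6 chemoreceptor rows stayed lower after subtraction, with a median of −1.71. The calls that remained under so small a subtraction are therefore no result about reads outside mature transcripts. Such reads may differ in number between libraries, and their part was not tested.

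Repeat elements, among them the retroviruses that Trim28 is known to silence, were mostly lower in shTrim28 relative to gene counts. Of 682 rows 467 (68.5%) were lower and 3 (0.44%) higher, 68.9% together, with a median log2 difference of −1.20. Both hairpins lay beyond both of the other target in 3.67% on the higher side and 87.7% on the lower, together 91.3%, whatever the p. The direction of the whole table depended on the scaling. With TMM factors of the repeat table itself the median was −0.04, 6 rows (0.88%) were higher and 0 (0%) lower by edgeR, with 82 at an unadjusted p under 0.05. Scaled to DNA transposons, edgeR called 0 (95 at an unadjusted p under 0.05). On the gene scale edgeR called 618 without shTrim28 replicate 1, but 1 without shTrim28 replicate 2 and 0 without either library labelled shWtx (254, 48 and 174 at an unadjusted p under 0.05). The control lay below all 4 other libraries in 427 of the 467 lower rows, as it did for chemoreceptor genes. The share over all 682 rows was not taken, so this is no result about the lower rows.

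The 3 higher elements stood out from that shift. IAPLTR1_Mm, a long terminal repeat of intracisternal A particles, stood at 800.3 and 1857 CPM of gene counts in shTrim28, at 431 and 357 in the libraries labelled shWtx and at 169 in the control (log2 1.76, SE 0.52, adjusted p = 0.0151). Scaled by the repeat table its difference was 3.09 (SE 0.59), which did not pass by edgeR with the spread shared in part (adjusted p = 0.0778). MT2_Mm, the long terminal repeat of the retrovirus MERVL that drives transcripts of the 2-cell embryo, stood at 20856 and 23294, 11544 and 9733, and 12818 CPM (1.05, SE 0.42, adjusted p = 0.029), and it passed on the repeat scale too (2.27, adjusted p = 0.0349), but not scaled to DNA transposons (2.11, adjusted p = 0.0503). The small nuclear RNA U4 stood at 11876 and 16150, 7289 and 5747, and 5489 CPM (1.10, SE 0.44, adjusted p = 0.029), and it did not pass on the repeat scale (2.36, adjusted p = 0.0558). None of these 3 passed without shTrim28 replicate 2 or without either library labelled shWtx.

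Within the intracisternal A particle group, 11 of 15 elements were lower, 1 was higher, and the median was −1.46 on the gene scale and −0.18 on the repeat scale. The share called lower, 73.3%, is near the 68.5% over all repeat rows. The internal part IAPEz-int stood at 2269 and 2626 CPM in shTrim28, at 7072 and 4598 in the libraries labelled shWtx and at 261 in the control (−1.25, SE 0.47). On the repeat scale its difference was −0.01. IAPLTR1a_Mm (−0.54), IAPLTR2a (−0.38) and IAPLTR2_Mm (−0.22) were not called. All 15 elements of the group were lower in the control than in any shTrim28 or shWtx library. That share was not taken over all repeat rows, so it is no trait of this group.

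Of 7 MERVL and MT2 elements MT2_Mm was higher, MT2A lower (−1.10) and 5 were not called. The median was −0.31 on the gene scale and 0.91 on the repeat scale, where all 7 were positive. MERVL-int, the internal part of the retrovirus, had 0.03 (adjusted p = 0.959) on the gene scale, at 3408 and 3938 CPM in shTrim28 against 4182 and 3035 under shWtx and 1319 in the control, and 1.26 (adjusted p = 0.0847) on the repeat scale. Among 9 MERVK10C and RLTR10 elements 5 were lower (median −1.06, and 0.17 on the repeat scale), with RLTR10A at −1.75 and RLTR10B at 0.04.

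Elements outside the retroviruses shifted by a similar amount on the gene scale. The 71 DNA transposons, which are old and inactive in mouse, had a median of −1.30 with 60 lower, and the 7 young mouse L1 elements −1.26 with 6 lower. On the repeat scale these medians were −0.10 and −0.12. L1Md_F stood at 2978 and 2053 CPM in shTrim28, 7707 and 5907 in the libraries labelled shWtx and 421 in the control (−1.44, SE 0.47). The major satellite GSAT_MM of pericentromeric heterochromatin stood at 18103 and 13709, 45937 and 61424, and 3191 CPM (−1.76, SE 0.40, adjusted p = 0.00765, and −0.63 on the repeat scale). The largest differences on the lower side were those of the simple repeat (CACAG)n (−2.16), the DNA transposon Arthur1B (−2.05) and the MaLR element MLT1A0-int (−1.92).

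Rows of structural RNA and simple repeats made of C and G alone did not take part in the shift. Of 23 structural RNA rows 1 was higher, 1 lower (tRNA-Ala-GCA, −1.14) and the median was 0.40. All 23 were positive on the repeat scale, with a median of 1.68, and U6, 5S, 4.5SRNA and HY3 were called there. The 9 simple repeats of C and G alone had medians of 0.51 and 1.85 on the gene and repeat scale, and none was called on either. The call on the repeat scale outside these groups, besides MT2_Mm, was the simple repeat (CGAG)n (1.91).

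**Figure D5:**
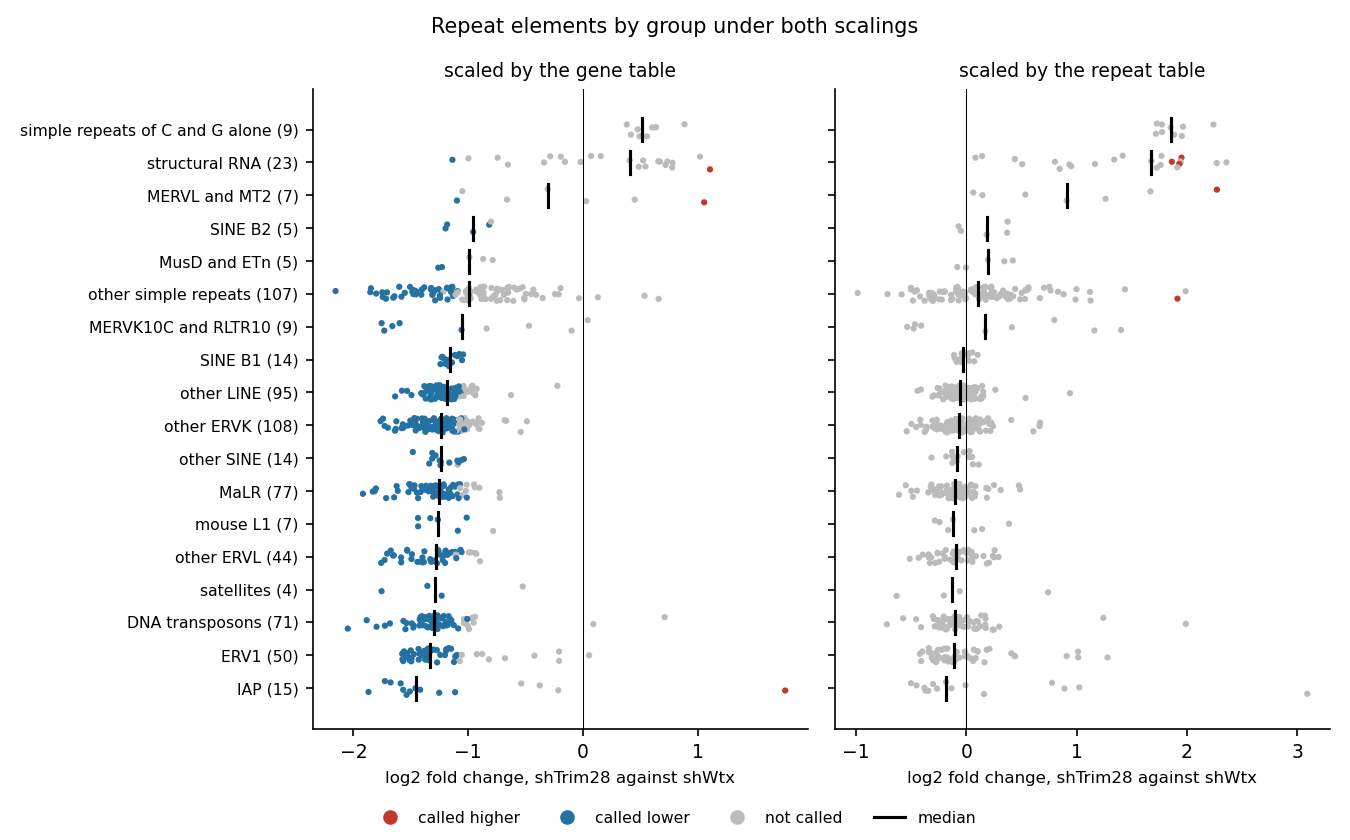
Each row is a group of repeat elements with the number tested in brackets, and each point an element's log2 difference of shTrim28 from shWtx, scaled by the gene table on the left and by the repeat table on the right. Red, blue and grey mark elements called higher, called lower and not called, bars are medians, and 18 rows of mixed kinds are left out. Most groups have medians near −1.2 on the left and near 0 on the right, while structural RNA and C and G repeats lie above 0 in both panels and MERVL and MT2 elements lie at −0.31 and 0.91.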

How the data were processed

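Single-molecule sequencing on the Helicos instrument gave RNA profiles of 5 cultures, 1 with a control hairpin and 2 for each of Trim28 and Wtx. The authors deposited expected counts (estimated counts that need not be whole) per gene and per repeat element, and mm9 is the build named in the submitters' processing notes. Reads were aligned to RefSeq for genes and to Repbase for repeats, per the labels' series design text. No source used here names the aligner, the counter or the use of strand, which makes overlapping, antisense and near-identical genes uncertain.

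Counts were rounded and fitted in R 4.3.3 with edgeR 4.0.16 (TMM scaling, quasi-likelihood test, 2-sided, Benjamini-Hochberg adjustment over all rows of a table, threshold 0.05), with limma 3.58.1 as its base. The scripts were tested on simulated data. All 5 libraries entered the fit, with repeat rows on the size factors of the gene table. CPM were taken of the scaled gene total, and the standard error is the absolute log2 difference divided by the square root of F, an approximation. DESeq2 1.42.0 served as an alternative. Alternatives were other size factors and filters, leaving out each library, TMM or DNA transposon scaling of repeats, and subtraction of the chemoreceptor level per transcript length. The last 2 fits of genes used rows with a length, and that row set was chosen after seeing the data.

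Named genes were the targets, the 5 markers, Pou5f1, Nanog and Sox2, the 12 symbols with the largest called difference in each direction, and up to 4 called members of lowest p in each list and direction. For repeats they were the 8 largest called elements in each direction, filled by lowest p, and the 3 of lowest p in each group. A gene that falls under the rule is not reported here. Values of other members were chosen after they were seen. Members and gene lists were chosen with earlier results of these data known. Chi-square per degree of freedom between libraries of a target was 3.32 for shTrim28 and 1.99 for shWtx, so both were kept as separate samples. Coordinates and hairpin matches are on GRCm38, and promoter windows come from RefSeq on GRCm38.p6.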

Additional observations from a re-analysis of the deposited data

How the results depend on the processing

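Over all rows, edgeR's 1008 gene calls became 1640 with filterByExpr and 423 with DESeq2's Wald test, and lay between 342 and 1612 when 1 library was left out. With DESeq2's size factors, the 4 libraries alone, the adjusted p alone, rows with a length or subtraction they stayed within 1.5 times. With no filter there were 890, of which 440 were shared with the 1008 and 377 were higher. The median of the rows reported moved to 0.20 with filterByExpr. With the Wald test 9 fibroblast, 5 Hedgehog and growth arrest, 4 imprinted, 3 Wnt target and 1 oxidative phosphorylation genes were higher, and 13 Zfp and 2 silencing genes lower. Of 90 named genes called, leaving out the library labelled shWtx replicate 1 kept 47, the Wald test 57 and no filter 66, and none reversed.

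The 470 repeat calls lay between 0 and 618 when 1 library was left out, numbered 6 with the repeat table's TMM and were 0 with the DNA transposon total. The repeat table's TMM moved the median of all elements from −1.20 to −0.04 and the DNA transposon total moved it to −0.19. With that common shift the sign changed with the repeat table's TMM for L1Md_F2 (0.073), ETnERV3-int (0.20), MT2A (0.064), MT2B2 (0.15), tRNA-Ala-GCA (0.084), tRNA-Ala-GCY_ (0.14) and B2_Mm2 (0.19), and with the DNA transposon total for ETnERV3-int (0.051), tRNA-Ala-GCY_ (0.0050) and B2_Mm2 (0.058). None of these elements was called under those scalings. The depth of the shallowest library, 280614 gene counts, limits low genes such as Fam123b. No paired analysis was possible because the labels give hairpin numbers but no replicate numbers that the targets share.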
